A study of Mus musculus with 12 samples.

Results

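The genes described here make, move and break down ceramide, the lipid at the centre of sphingolipid metabolism. The set holds 39 mouse genes, named as the enzymes and helper proteins of ceramide synthesis, sphingomyelin turnover, sphingosine 1-phosphate metabolism and glycosphingolipid degradation, and the synthases of gangliosides were left out. A RefSeq transcript of 37 of the 39 was on the array. Of these, 34 were bright enough in at least 1 group to be tested, among 12411 genes tested of 17016 on the array. Kdsr and A4galt had no such probe, and Sptlc3, Degs2 and Acer2 were well above background on 0, 1 and 1 of 12 arrays and were not tested.

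Messenger RNA from mouse embryonic fibroblast lines was measured on 12 one-colour arrays, 1 per culture. The KO line lacks focal adhesion kinase (FAK, gene Ptk2), a tyrosine kinase that signals at the sites where integrins attach a cell to its matrix, and the rescue line, clone DA2, carries FAK again. The rescue line is 1 clone, and what drives its FAK is not given in the sources used here. The 4 groups were KO dense, KO sparse, rescue dense and rescue sparse, with 3 cultures each, 1 from each of 3 experimental days. A dense culture began with 8200000 cells and a sparse culture with 410000 cells on a dish of 10 cm, and both grew for 24 h. All cultures had DMEM with Glutamax and 10% FBS. Non-essential amino acids and 135 ug/ml hygromycin B were added for the rescue line, so medium and line cannot be told apart.

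Ceramide is built in the endoplasmic reticulum, carried to the Golgi and turned there into sphingomyelin or glycosphingolipids. Sphingomyelinases release it again, and lysosomal hydrolases with their saposin cofactors take glycosphingolipids apart step by step until ceramide is left. Ceramidases then free sphingosine, whose phosphate is a signalling lipid, and a lyase ends the pathway by splitting that phosphate.

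Differences are log2 values with their standard error (±), and adjusted p-values come from limma with Benjamini-Hochberg adjustment over 12411 genes, called below 0.05. Levels are given as log2 signal minus the 75th percentile of the array, in the order of days 1 to 3, and they rank cultures for 1 probe, not probes against each other. In bulk cultures, fewer cells that express a gene and less RNA per cell cannot be told apart. Between 23143 and 26173 of 41174 probes were well above background on an array, and replicates correlated at 0.982 to 0.992 across genes. The spike-in RNA stood 2.13 to 2.49 above the 75th percentile in KO dense, 4.74 to 6.13 in KO sparse, 2.71 to 3.58 in rescue dense and 3.53 to 4.28 in rescue sparse cultures. Scaling to it moved the median difference of all genes to -1.57 (KO minus rescue, sparse), 0.97 (KO minus rescue, dense), 3.24 (dense minus sparse, KO), 0.67 (dense minus sparse, rescue) and 2.53 (interaction) log2 units, so every direction below is relative to the 75th percentile. In the deposited table of processed values, 4 columns, those of day 3, matched the scanner files of the other line (r of 0.903 to 0.932, against -0.679 to -0.521 with their own), so the scanner files were used. The brighter probe of Ptk2 was not called different between lines (log2 -0.07 in dense and -0.11 in sparse cells, adjusted p = 0.747 and 0.632), and its other probe was lower in KO cells in both (-0.93 and -2.08). Ptk2b, the related kinase Pyk2, was higher in KO cells (1.86 in dense and 1.47 in sparse cells, the second being -0.12 with spike-in scaling). Where the Ptk2 probes lie relative to the deletion is not known here. Of 7 mesothelial markers, all 7 were above background in both KO groups, against 2 in both rescue groups, where Wt1 and Upk3b were above background on no array. Of the 7, 6 were higher in dense and 5 in sparse KO cells (31.9% and 23.3% of all genes). Msln went the other way and was lower in KO cells (-1.66 in dense and -1.31 in sparse cells). Of 12 fibroblast markers, 10 were above background on all arrays of KO dense, KO sparse and rescue sparse cultures and 11 in rescue dense cultures; Lum was above background only in rescue dense cultures, and Thy1 on no rescue and no KO sparse array. Their summed signal was 416.5 to 443.3 times the 75th percentile in KO dense and 410.7 to 447 in KO sparse cultures, against 1132 to 2008 in rescue dense and 1265 to 1453 in rescue sparse cultures. Of 11 tested, none was higher and 10 were lower in dense KO cells, and 3 were higher and 7 lower in sparse KO cells. That is 90.9% called at each density, against 61.6% of all genes in dense and 48.9% in sparse cells. Among the 3 was Dcn, with mean levels of 6.01 in KO sparse and 1.24 in rescue sparse cultures. With crowding, 2 of 11 tested fibroblast markers were higher and 1 lower in KO cells (5.45% and 5.5% of all genes). In rescue cells 6 were higher and none lower (19.1% and 21% of all genes), among them Dcn (4.55), Pdgfra (3.71) and Lum (at least 11-fold). The interaction was negative and called for 4 of the 11 (9.52% of all genes). The part of these marker differences in the results below was not tested.

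In KO cells the neutral sphingomyelinase gene Smpd3 and the ceramide synthase gene Cers4 were far higher than in rescue cells, while most genes for the lysosomal breakdown of glycosphingolipids were lower. Of 34 members, 4 were called higher and 15 lower in dense KO cells, that is 55.9%, where 61.6% of all genes were called (31.9% higher and 29.8% lower). In sparse KO cells 4 were higher and 13 lower, 50%, with 48.9% of all genes called (23.3% higher and 25.6% lower). The median difference over the 34 was -0.37 in dense and -0.41 in sparse cells, against 0.07 and 0.02 over all genes. No member was called in opposite directions at the 2 densities, 3 were higher at both and 10 lower at both. On the 1 slide that carried both lines, that of day 2, the sign was the same for all 19 members called in dense and all 17 called in sparse cells. The arrays of that slide also entered the calls, so equal signs there are no separate check of them. With the slide as a fixed block, the calls of Ormdl1 in dense cells and of Sptlc2, Ormdl2 and Asah2 in sparse cells were lost. Spike-in scaling ended the dense calls of Cers5, Ormdl3, Cert1, Smpd1, Asah1, Asah2, Sphk1 and Neu1 and the sparse calls of Smpd4 and Gm2a. With normexp background correction, the dense calls of Ormdl1, Cers5, Cert1 and Asah2 and the sparse calls of Ormdl2, Asah2 and Galc were lost. The 2 lines did not overlap for 20 of 34 members in dense cells (67.1% of all genes) and for 24 of 34 in sparse cells (59% of all genes). The plot of line differences by role sets both densities side by side.

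**Figure D1:**
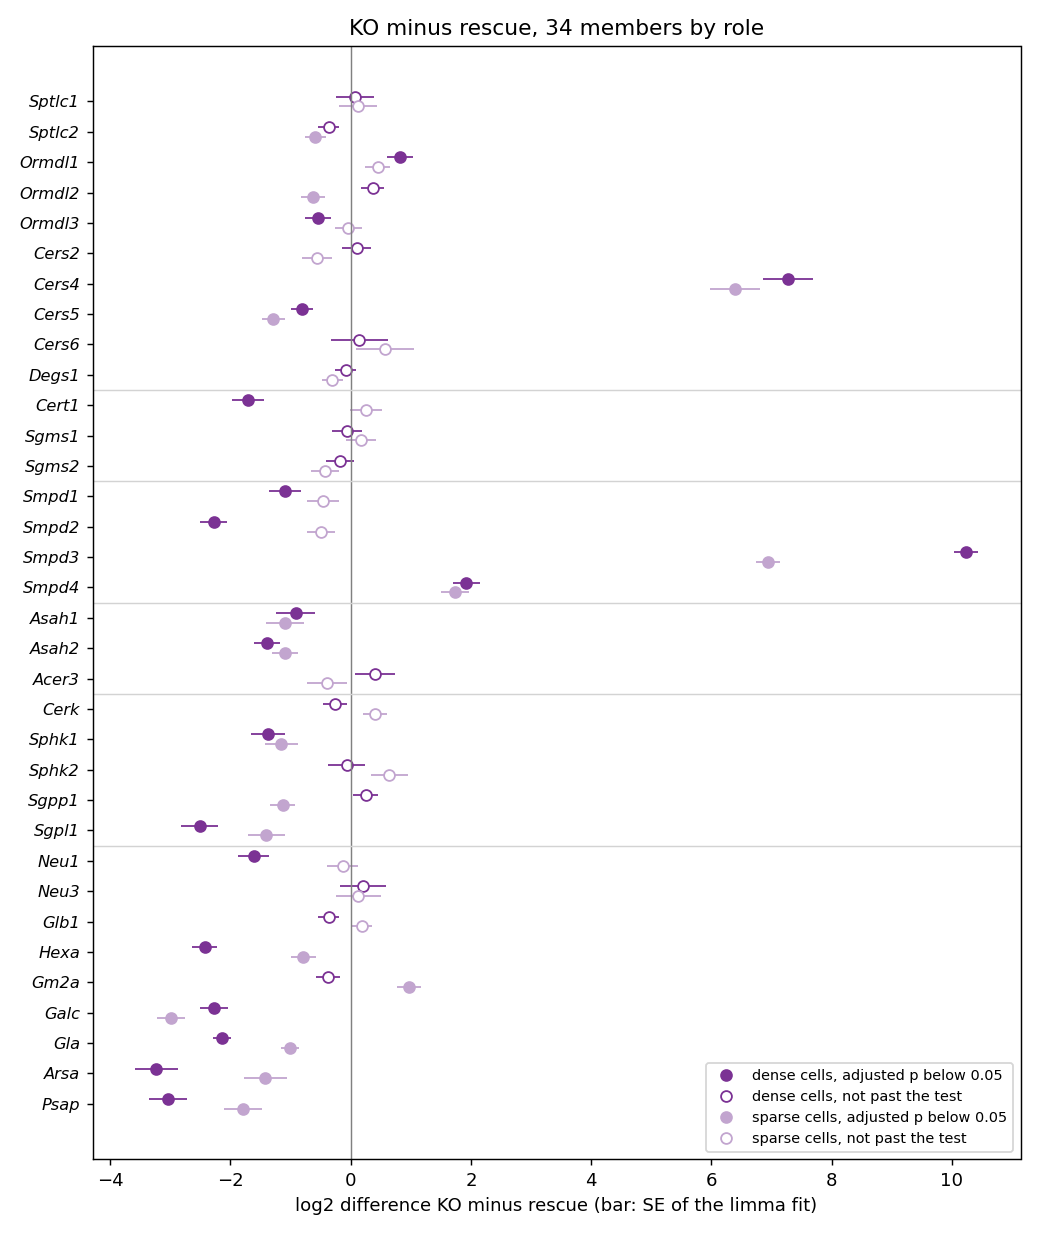
KO minus rescue difference (log2, x axis) for the 34 tested members, ordered by role, in dense and sparse cells; points are limma estimates, bars their standard errors, and filled points have an adjusted p below 0.05. Smpd3 and Cers4 stand between 6.40 and 10.24, and most genes of the lowest block, glycosphingolipid degradation, lie left of 0.

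Fewer members were called with crowding in KO than in rescue cells. In dense minus sparse KO cultures, 2 members were higher and 2 lower, 11.8% of 34, where 11% of all genes were called (5.45% higher and 5.5% lower). Rescue cells had 14 members higher and 6 lower, 58.8%, where 40.1% of all genes were called (19.1% higher and 21% lower). Dense and sparse cultures did not overlap for 17 of 34 members in KO cells (38.2% of all genes) and 21 of 34 in rescue cells (50.7% of all genes). With the experimental day as a replicate block, 5 members were higher in crowded KO cells, the added ones being Neu3, Sgpp1 and Sphk1 (adjusted p = 0.0314, 0.0297 and 0.0492). Leaving out 1 array gave 1 to 5 higher and 1 to 3 lower members in KO cells, and 9 to 14 higher and 3 to 6 lower members in rescue cells. With normexp, all 4 calls in KO cells were lost, and in rescue cells those of Cers5, Cers6, Degs1, Sgms2, Smpd3, Asah2, Cerk, Sphk1, Sgpp1, Neu3 and Psap. The 9 came without rescue dense culture 2 or rescue sparse culture 3, and the 3 without rescue dense culture 1 or rescue sparse culture 1. The response itself differed between the lines (interaction, KO response minus rescue response) for 10 members, 3 with a positive and 7 with a negative difference, 29.4% against 20.8% of all genes (11.3% and 9.52%). Line and density comparisons share cultures, so each is given with its own values.

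**Figure D2:**
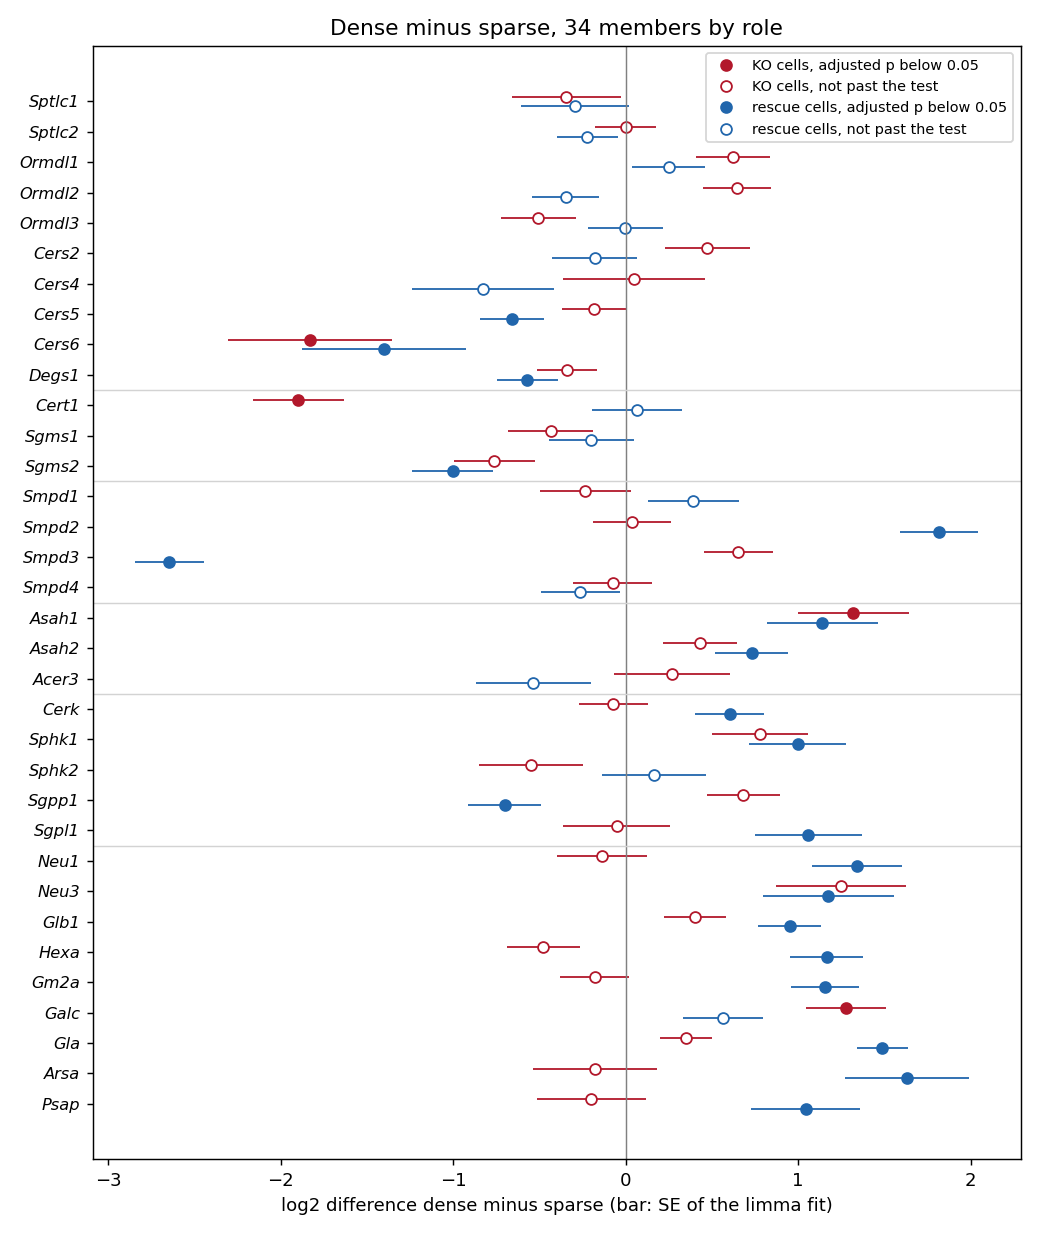
Dense minus sparse difference (log2, x axis) for the 34 tested members in KO and rescue cells; points are limma estimates, bars their standard errors, and filled points have an adjusted p below 0.05. In the lowest block, glycosphingolipid degradation, 1 of 9 KO points is filled and right of 0, against 8 of 9 rescue points.

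De novo synthesis starts with serine palmitoyltransferase (Sptlc genes), which the ORMDL proteins restrain, and passes through the ceramide synthases, each with its own choice of acyl chain length, to the desaturase Degs1. Of 10 tested genes of this branch, 2 were higher and 2 lower in dense KO than dense rescue cells, and 1 was higher and 3 were lower in sparse KO cells. That is 40% called at each density, against 61.6% of all genes in dense and 48.9% in sparse cells. Sptlc1, a subunit of the first enzyme, was not called in any of the 5 comparisons (differences of -0.34 to 0.12), and Cers2, the synthase of very long chain ceramides, was not called either (-0.56 to 0.65). Sptlc2 was lower in sparse KO cells (-0.59 ± 0.18, adjusted p = 0.016), a call lost with the mean of probes and without KO sparse culture 2 or rescue sparse culture 3. Another Sptlc2 probe had the opposite sign there (0.34, adjusted p = 0.135).

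Cers4 had levels of 1.59, 1.11 and 0.83 in KO dense and 1.24, 1.22 and 0.93 in KO sparse cultures, against -5.12, -6.46 and -6.71 in rescue dense and -4.62, -5.91 and -5.28 in rescue sparse cultures. All 6 KO cultures lay above all 6 rescue cultures, with differences of 7.27 ± 0.41 (adjusted p = 2.3e-08) in dense and 6.40 ± 0.41 (adjusted p = 9.34e-08) in sparse cells. In rescue cells the probe was well above background on 1 of 3 dense and 2 of 3 sparse cultures, so the level there is near the detection limit. A second Cers4 probe was well above background on 6 of 12 arrays, and its rescue signals were too dim to give more than a bound. Cers5, which makes palmitoyl ceramide, had 1.84, 1.67 and 1.98 in KO dense and 2.08, 1.92 and 2.05 in KO sparse cultures, against 2.49, 2.59 and 2.84 in rescue dense and 3.64, 3.18 and 3.08 in rescue sparse cultures. It was lower in KO cells without overlap at both densities, with differences of -0.81 ± 0.19 (adjusted p = 0.00247) in dense and -1.29 ± 0.19 (adjusted p = 0.000116) in sparse cells. It was also lower in dense than sparse rescue cultures (-0.66 ± 0.19, adjusted p = 0.0146), a call lost without rescue dense culture 1 or rescue sparse culture 1. Scaling to the spike-in RNA turned its dense line difference and its rescue density difference to 0.09 each.

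Cers6, another synthase of shorter chains, had -4.26, -3.10 and -2.26 in KO dense and -1.59, -1.60 and -0.95 in KO sparse cultures, against -3.50, -3.49 and -3.05 in rescue dense and -2.21, -2.56 and -1.08 in rescue sparse cultures. It was lower in dense than sparse cultures of both lines without overlap, with differences of -1.83 ± 0.48 (adjusted p = 0.0315) in KO and -1.40 ± 0.48 (adjusted p = 0.0346) in rescue cells, and the lines were not called different. Both calls were lost under 10 of 24 alternatives. The KO call was lost without KO dense culture 1 or 2 or any KO sparse culture, and the rescue call without any rescue dense culture or rescue sparse culture 1 or 3. Spike-in scaling turned the KO difference to 1.41. Degs1, which puts in the double bond of ceramide, was lower in dense than sparse rescue cultures (-0.57 ± 0.18, adjusted p = 0.0221; 0.18 with spike-in scaling), a call lost without rescue dense culture 1 or 3 or rescue sparse culture 1 or 2.

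The 3 ORMDL genes were called in different comparisons. Ormdl1 had 2.68, 2.58 and 2.42 in KO dense and 2.07, 1.76 and 1.98 in KO sparse cultures, against 1.58, 1.77 and 1.87 in rescue dense and 1.73, 1.74 and 1.00 in rescue sparse cultures, and was higher in dense KO than dense rescue cells (0.82 ± 0.21, adjusted p = 0.00528). Ormdl2 had 1.79, 1.91 and 2.07 in KO dense and 1.19, 1.51 and 1.13 in KO sparse cultures, against 1.53, 1.31 and 1.85 in rescue dense and 1.88, 1.71 and 2.14 in rescue sparse cultures. It was lower in sparse KO cells (-0.63 ± 0.20, adjusted p = 0.0188), and its density response was more positive in KO than in rescue cells (0.99 ± 0.28, adjusted p = 0.0258). The sparse call was lost without KO sparse culture 1 or 3 or rescue sparse culture 3. The interaction was lost without KO dense culture 2 or 3, KO sparse culture 1 or 3, or rescue dense culture 1 or 2, and both calls were lost with the deposited values of days 1 and 2. Ormdl3 was lower in dense KO cells, with overlapping groups (-0.54 ± 0.22, adjusted p = 0.0469; 0.36 with spike-in scaling). This call was lost under 12 of 24 alternatives, among them leaving out any 1 array other than KO dense culture 1 or rescue dense culture 3.

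The ceramide transfer protein, gene Cert1, carries ceramide from the endoplasmic reticulum to the Golgi for sphingomyelin synthesis. Cert1 had levels of -3.64, -3.07 and -3.53 in KO dense and -1.68, -1.77 and -1.09 in KO sparse cultures, against -2.15, -1.51 and -1.45 in rescue dense and -1.95, -1.91 and -1.46 in rescue sparse cultures. The 3 KO dense cultures were the lowest of all 12, and the other groups overlapped. KO minus rescue was -1.71 ± 0.26 (adjusted p = 0.000125) in dense cells. Dense minus sparse was -1.90 ± 0.26 (adjusted p = 0.00224) in KO cells and 0.07 ± 0.26 (adjusted p = 0.86) in rescue cells, and the difference of these responses was -1.96 ± 0.37 (adjusted p = 0.00377). Spike-in scaling turned the KO response to 1.34 and the interaction to 0.53, and neither passed the test with normexp or with the deposited values of days 1 and 2. The dense line difference did not pass it with spike-in scaling or normexp.

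Of the sphingomyelin synthases, Sgms1 of the Golgi was not called in any comparison by the probe used. A second, dimmer Sgms1 probe had -0.08, -0.41 and -0.02 in rescue dense, below 0.48, 0.40 and 1.11 in rescue sparse cultures. Its KO dense and KO sparse levels overlapped. Sgms2, found mainly at the plasma membrane, had -3.29, -3.13 and -2.74 in KO dense and -2.39, -2.17 and -2.31 in KO sparse cultures, against -2.59, -3.37 and -2.65 in rescue dense and -1.62, -1.95 and -2.02 in rescue sparse cultures. The dense cultures lay below the sparse ones of their own line in every case, and the difference did not pass the test in KO (-0.76 ± 0.23, adjusted p = 0.0597) but did in rescue cells (-1.003 ± 0.23, adjusted p = 0.0053). The difference between these responses did not pass it (0.24 ± 0.33, adjusted p = 0.643).

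The 4 sphingomyelinases, which cut sphingomyelin into ceramide and phosphocholine, went separate ways. In dense cells Smpd3 and Smpd4 were higher in KO and Smpd1 and Smpd2 lower, so all 4 were called (61.6% of all genes). In sparse cells Smpd3 and Smpd4 were called higher, 2 of 4 (48.9% of all genes called). Smpd3, the neutral sphingomyelinase nSMase2 of the plasma membrane, had levels of 4.24, 4.38 and 4.40 in KO dense and 3.34, 3.91 and 3.81 in KO sparse cultures, against -5.67, -6.04 and -6.00 in rescue dense and -3.16, -3.53 and -3.07 in rescue sparse cultures. Every KO culture was above every rescue culture, and within rescue every dense culture was below every sparse one. The line difference was 10.24 ± 0.20 (adjusted p = 6.77e-12) in dense and 6.94 ± 0.20 (adjusted p = 1.07e-10) in sparse cells. With crowding Smpd3 was not called in KO cells (0.65 ± 0.20, adjusted p = 0.0586) and fell in rescue cells (-2.64 ± 0.20, adjusted p = 4.1e-06), and the responses differed by 3.30 ± 0.28 (adjusted p = 4.52e-05).

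The array held 3 probes of Smpd3. In a fit over all probes the other 2 gave line differences of 7.10 and 9.76 in dense and 5.98 and 7.76 in sparse cells, and fell by 1.77 and 2.32 in crowded rescue cells, all called. In crowded KO cells they gave -0.64 and -0.32, not called and opposite in sign to the first probe, and their interaction values were 1.13 (adjusted p = 0.346) and 2.00 (adjusted p = 0.0199). In rescue dense cultures the probe used for the gene was well above background on 1 of 3 arrays. With normexp background correction the interaction was 1.45 with an adjusted p of 0.104.

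Smpd4, a neutral sphingomyelinase of internal membranes, had 3.18, 2.71 and 2.65 in KO dense and 2.99, 2.93 and 2.83 in KO sparse cultures, against 1.02, 0.75 and 0.99 in rescue dense and 1.33, 1.53 and 0.68 in rescue sparse cultures. KO cultures were above all rescue cultures at both densities, with differences of 1.92 ± 0.23 (adjusted p = 1.6e-05) in dense and 1.74 ± 0.23 (adjusted p = 5.63e-05) in sparse cells. Smpd2, another neutral sphingomyelinase, had -0.03, -0.17 and -0.27 in KO dense and -0.22, -0.01 and -0.34 in KO sparse cultures, against 2.06, 2.63 and 1.68 in rescue dense and 0.13, 0.44 and 0.34 in rescue sparse cultures. The rescue dense cultures stood apart from the other 9. With crowding Smpd2 was not called in KO cells (0.04 ± 0.23, adjusted p = 0.939) and rose in rescue cells (1.82 ± 0.23, adjusted p = 8.69e-05), and the responses differed by -1.78 ± 0.32 (adjusted p = 0.0028), which spike-in scaling turned to 0.71. KO minus rescue was -2.28 ± 0.23 (adjusted p = 3.21e-06) in dense cells. Smpd1, the acid sphingomyelinase of lysosomes, averaged 2.73 ± 0.03 in KO dense, against 3.83 ± 0.25 in rescue dense cultures (SD, n = 3 each), a difference of -1.09 ± 0.26 (adjusted p = 0.00342).

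**Figure D3:**
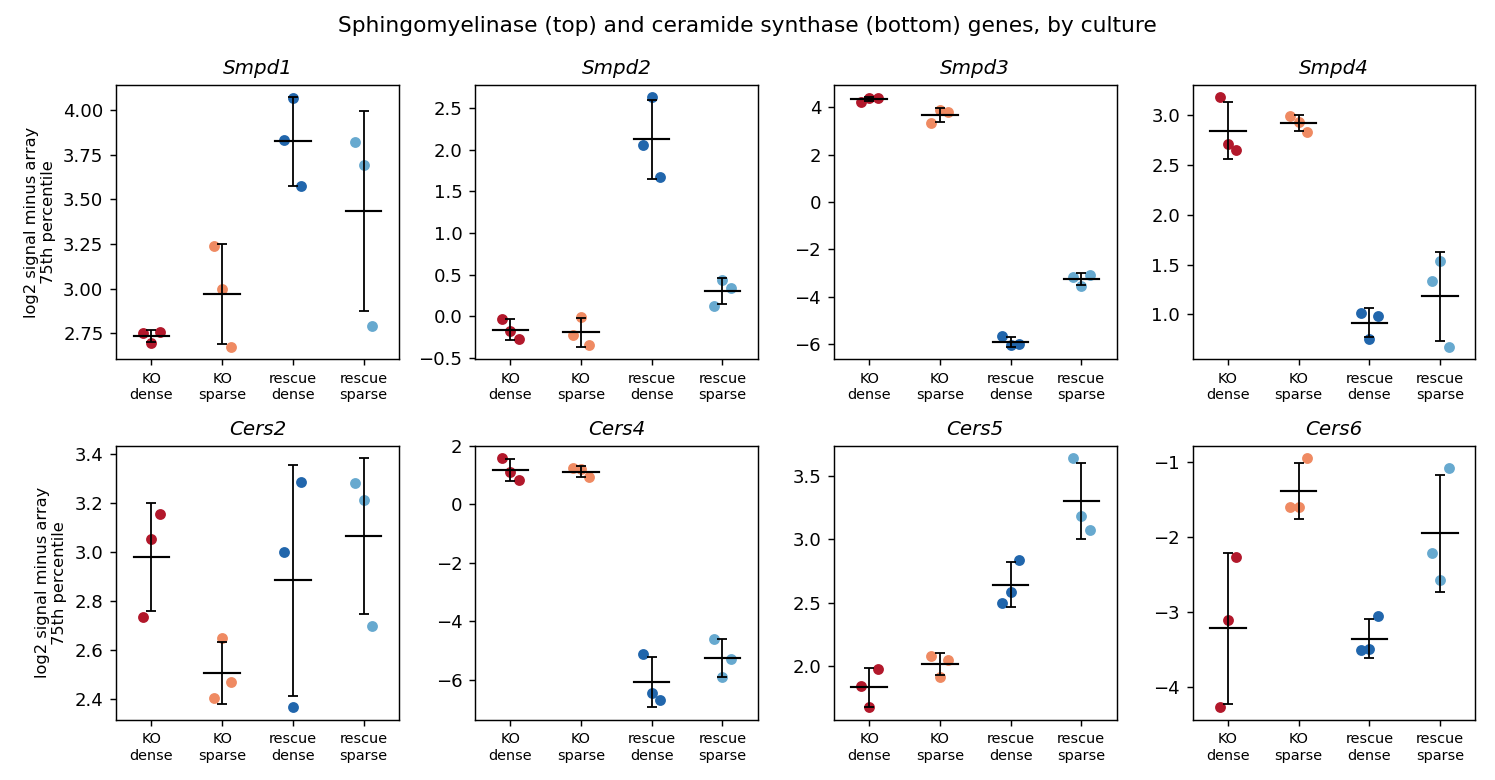
Level (log2 signal minus the array's 75th percentile, y axis, own scale per gene) of the 4 sphingomyelinase genes and 4 ceramide synthase genes in each culture; points are cultures, bars the mean and SD of 3. The means of Smpd3 and of Cers4 differ between the lines by over 6 units at each density. Rescue signals are near background for Cers4 and, in dense cultures, for Smpd3. Smpd2 is high in rescue dense cultures, and Cers6 is lower in dense cultures of both lines.

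Of 3 tested ceramidases, 2 were lower in KO cells at both densities, where 29.8% of all genes were lower in dense and 25.6% in sparse cells. Asah1, the acid ceramidase of lysosomes, had 1.69, 1.03 and 1.57 in KO dense and 0.03, -0.04 and 0.34 in KO sparse cultures, against 2.09, 2.01 and 2.92 in rescue dense and 0.74, 1.02 and 1.85 in rescue sparse cultures. It was lower in KO cells without overlap, with differences of -0.92 ± 0.32 (adjusted p = 0.0266) in dense and -1.09 ± 0.32 (adjusted p = 0.0142) in sparse cells, and higher in dense than sparse cultures of both lines, with differences of 1.32 ± 0.32 (adjusted p = 0.0243) in KO and 1.14 ± 0.32 (adjusted p = 0.0146) in rescue cells. It was the only member called higher with crowding in both lines. Each of the 4 calls was lost without some single arrays. These were KO dense culture 2 or rescue dense culture 3 for the dense line difference and rescue sparse culture 3 for the sparse one. For the KO density difference they were KO dense culture 1 or 3 or KO sparse culture 1 or 2, and for the rescue one rescue dense culture 3 or rescue sparse culture 1. Asah2, the neutral ceramidase, was also lower in KO cells (-1.39 ± 0.21, adjusted p = 0.000118 in dense and -1.09 ± 0.21, adjusted p = 0.0011 in sparse cells) and higher in crowded rescue cells (0.73 ± 0.21, adjusted p = 0.017), the last call being lost without rescue dense culture 3 or rescue sparse culture 3. Acer3, an alkaline ceramidase, was not called in any comparison.

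Sphingosine made by ceramidases is phosphorylated by the sphingosine kinases, recycled by the phosphatase Sgpp1 or lost through the lyase Sgpl1. Sgpl1 had 2.60, 2.32 and 1.70 in KO dense and 2.33, 2.25 and 2.20 in KO sparse cultures, against 4.90, 5.18 and 4.08 in rescue dense and 3.95, 3.80 and 3.24 in rescue sparse cultures. All KO cultures were below all rescue cultures, with differences of -2.51 ± 0.31 (adjusted p = 2.04e-05) in dense and -1.40 ± 0.31 (adjusted p = 0.00261) in sparse cells, and it was higher in crowded rescue cells (1.06 ± 0.31, adjusted p = 0.0175; a second probe gave 0.66, adjusted p = 0.0695). That density call was lost without rescue dense culture 1 or 2 or rescue sparse culture 3. The interaction (-1.11 ± 0.44, adjusted p = 0.0952) passed the test with the day as a replicate block (adjusted p = 0.0230). Sphk1 was lower in KO cells, with differences of -1.37 ± 0.28 (adjusted p = 0.00107) in dense and -1.15 ± 0.28 (adjusted p = 0.00473) in sparse cells. Crowded rescue cells had more Sphk1 (1.00), a call lost with normexp and without rescue dense culture 2. Sphk2 was not called in any comparison.

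Sgpp1 had 0.67, 0.92 and 0.95 in KO dense and 0.12, 0.09 and 0.27 in KO sparse cultures, against 0.52, 0.28 and 0.99 in rescue dense and 1.11, 1.19 and 1.60 in rescue sparse cultures. In KO cells every dense culture was above every sparse one, and in rescue cells every dense culture was below every sparse one. Its response was 0.68 ± 0.21 (adjusted p = 0.0589) in KO and -0.70 ± 0.21 (adjusted p = 0.0195) in rescue cells, and their difference was 1.38 ± 0.30 (adjusted p = 0.00734). This was the only one of the 10 member interactions that kept its direction and passed the test under all 24 alternatives. With spike-in scaling, 88.3% of all genes were called higher for the interaction, so that setting hardly tests a positive one. The rescue response of Sgpp1 itself was 0.05 with spike-in scaling. It was not called without rescue dense culture 1 or 2 or rescue sparse culture 3. Cerk, ceramide kinase, was higher in crowded rescue cells (0.60 ± 0.20, adjusted p = 0.0302). That call was lost under 8 of 24 alternatives, among them leaving out rescue dense culture 1 or 2 or any rescue sparse culture, and a second Cerk probe gave 0.04 (adjusted p = 0.923).

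Glycosphingolipid degradation takes place mostly in lysosomes, and 9 of its genes were tested. In dense cells 6 of its 9 genes were lower in KO (29.8% of all genes) and none higher, with a median of -2.14 (0.07 over all genes). In sparse cells 5 were lower (25.6% of all genes) and 1 higher, with a median of -0.79 (0.02 over all genes). In crowded KO cells 1 of 9 was higher (5.45% of all genes), with a median of -0.14 (0.00 over all genes), and in crowded rescue cells 8 were higher (19.1% of all genes), with a median of 1.16 (-0.08 over all genes). The interaction was negative and called for 5 of 9 (9.52% of all genes), and spike-in scaling turned all 5. The plot of degradation gene levels shows the rescue dense cultures highest for most of the 9.

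**Figure D4:**
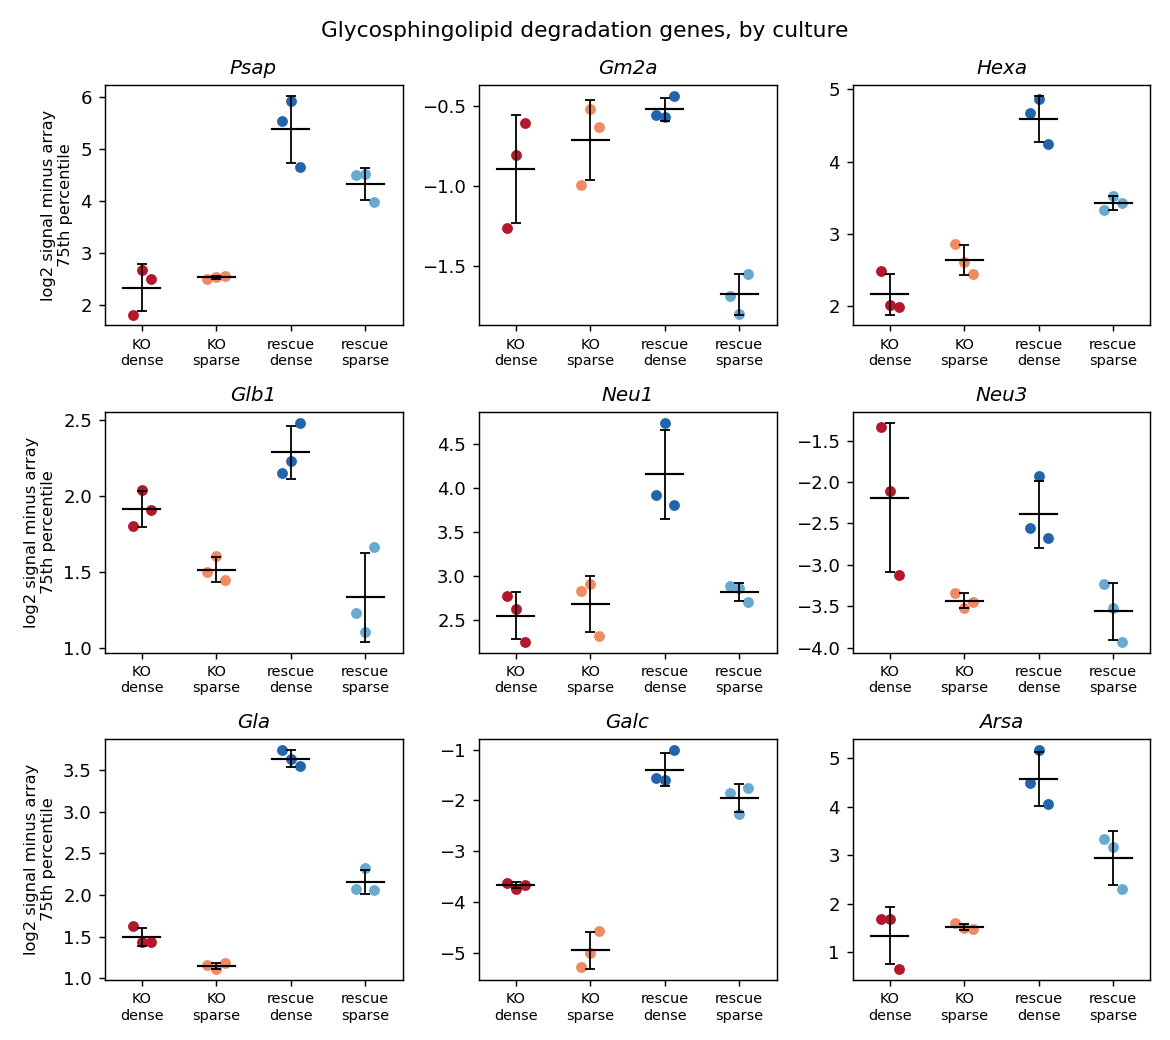
Level (log2 signal minus the array's 75th percentile, y axis, own scale per gene) of the 9 glycosphingolipid degradation genes in each culture; points are cultures, bars the mean and SD of 3. Rescue dense cultures lie above rescue sparse cultures for all 9 genes, and KO cultures lie below all rescue cultures for Psap, Hexa, Gla, Galc and Arsa.

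Psap encodes prosaposin, the precursor of the saposins that lift lipids toward the hydrolases. Psap had 1.81, 2.66 and 2.50 in KO dense and 2.49, 2.54 and 2.55 in KO sparse cultures, against 5.54, 5.91 and 4.65 in rescue dense and 4.50, 4.51 and 3.97 in rescue sparse cultures. KO cultures were all below rescue cultures, with differences of -3.04 ± 0.32 (adjusted p = 4.75e-06) in dense and -1.80 ± 0.32 (adjusted p = 0.00052) in sparse cells. Psap was higher in crowded rescue cells (1.04 ± 0.32, adjusted p = 0.0205), a call lost without rescue dense culture 1 or 2 or rescue sparse culture 3. The interaction did not pass the test (-1.24 ± 0.45, adjusted p = 0.0703), while a second probe gave -1.54 (adjusted p = 0.00957).

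Arsa, the arylsulfatase that desulfates sulfatide, had 1.69, 1.67 and 0.65 in KO dense and 1.59, 1.49 and 1.47 in KO sparse cultures, against 4.49, 5.17 and 4.05 in rescue dense and 3.33, 3.18 and 2.31 in rescue sparse cultures. KO cultures were all below rescue cultures, with differences of -3.23 ± 0.36 (adjusted p = 8.54e-06) in dense and -1.42 ± 0.36 (adjusted p = 0.00608) in sparse cells. It was not called in crowded KO cells and was higher in crowded rescue cells (1.63 ± 0.36, adjusted p = 0.00366), and the interaction was -1.81 ± 0.51 (adjusted p = 0.0264). Spike-in scaling turned the interaction to 0.68, and it missed the threshold without KO dense culture 3, KO sparse culture 1, rescue dense culture 2 or rescue sparse culture 3. Galc, which removes galactose from galactosylceramide, had -3.62, -3.74 and -3.66 in KO dense and -5.29, -5.00 and -4.56 in KO sparse cultures, against -1.56, -1.60 and -1.01 in rescue dense and -1.84, -2.27 and -1.76 in rescue sparse cultures. It was lower in KO cells, with differences of -2.28 ± 0.23 (adjusted p = 4.09e-06) in dense and -2.99 ± 0.23 (adjusted p = 4.98e-07) in sparse cells, without overlap. Galc was also the only gene of this branch called higher in crowded KO cells (1.28 ± 0.23, adjusted p = 0.00694), where the sparse level was well above background on 1 of 3 arrays, and a second probe gave 0.47 (adjusted p = 0.315).

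Hexa, the alpha subunit of beta-hexosaminidase, had 2.49, 2.01 and 1.99 in KO dense and 2.86, 2.62 and 2.44 in KO sparse cultures, against 4.67, 4.87 and 4.24 in rescue dense and 3.33, 3.52 and 3.43 in rescue sparse cultures. KO cultures were all below rescue cultures, with differences of -2.43 ± 0.21 (adjusted p = 9.64e-07) in dense and -0.79 ± 0.21 (adjusted p = 0.00835) in sparse cells. The density response was -0.48 ± 0.21 (adjusted p = 0.169) in KO and 1.16 ± 0.21 (adjusted p = 0.00104) in rescue cells. The responses differed (-1.64 ± 0.30, adjusted p = 0.00291; 0.85 with spike-in scaling). Gm2a, the activator protein that presents GM2 ganglioside to that enzyme, had -1.27, -0.81 and -0.61 in KO dense and -0.9975, -0.52 and -0.63 in KO sparse cultures, against -0.56, -0.57 and -0.44 in rescue dense and -1.69, -1.80 and -1.55 in rescue sparse cultures. The 3 rescue sparse cultures were the lowest of the 12. Gm2a was higher in sparse KO than sparse rescue cells (0.96 ± 0.20, adjusted p = 0.00171, and -0.63 with spike-in scaling). By the probe used for each gene, it was the one gene of the branch called higher there. Gm2a was not called in dense cells (-0.37 ± 0.20, adjusted p = 0.127). Its response in rescue cells was 1.16 ± 0.20 (adjusted p = 0.000786), and the interaction passed the test (-1.33 ± 0.28, adjusted p = 0.00678; 1.16 with spike-in scaling). A second, dimmer probe gave 1.02 in sparse cells (adjusted p = 0.0638) and an interaction of -1.40 (adjusted p = 0.125).

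Gla, the alpha-galactosidase of globoside breakdown, had 1.62, 1.44 and 1.43 in KO dense and 1.16, 1.11 and 1.18 in KO sparse cultures, against 3.74, 3.63 and 3.55 in rescue dense and 2.08, 2.32 and 2.06 in rescue sparse cultures. No 2 of the 4 groups overlapped. KO cells were lower, with differences of -2.14 ± 0.15 (adjusted p = 1.43e-07) in dense and -1.003 ± 0.15 (adjusted p = 0.000142) in sparse cells. The response was 0.35 ± 0.15 (adjusted p = 0.155) in KO and 1.49 ± 0.15 (adjusted p = 2.1e-05) in rescue cells, and the interaction passed the test (-1.14 ± 0.21, adjusted p = 0.0033; 1.35 with spike-in scaling).

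Neu1, the lysosomal sialidase, had 2.77, 2.62 and 2.25 in KO dense and 2.83, 2.90 and 2.32 in KO sparse cultures, against 3.92, 4.74 and 3.80 in rescue dense and 2.89, 2.86 and 2.70 in rescue sparse cultures. Only rescue dense cultures stood apart, with a response of 1.34 ± 0.26 (adjusted p = 0.00167) in rescue cells, a line difference of -1.61 ± 0.26 (adjusted p = 0.000185) in dense cells and a negative interaction (-1.48 ± 0.37, adjusted p = 0.0151; 1.01 with spike-in scaling). Neu3, the sialidase of the plasma membrane, had -1.33, -2.11 and -3.12 in KO dense and -3.34, -3.52 and -3.45 in KO sparse cultures, against -2.56, -1.93 and -2.68 in rescue dense and -3.24, -3.52 and -3.93 in rescue sparse cultures. Dense cultures were above sparse ones in both lines, and the response did not pass the test in KO (1.25 ± 0.38, adjusted p = 0.0563) but did in rescue cells (1.17 ± 0.38, adjusted p = 0.0275), where it was lost without rescue dense culture 2 or rescue sparse culture 2 or 3. Glb1, the beta-galactosidase, was higher in crowded rescue cells (0.95 ± 0.18, adjusted p = 0.00148), and the lines were not called different, while a second probe was higher in sparse KO cells (0.69, adjusted p = 0.0356).

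Many lysosomal genes carry the letters CACGTG in their promoters, the core of the palindrome bound by the transcription factor TFEB and its relatives, so the 250 bases before each RefSeq start were searched for it (mouse build GRCm38.p6). The sequences are shown for 6 of the 14 members that rose in crowded rescue cells, 4 with the letters and 2 without, in lower case with CACGTG in capitals, read 5′ to 3′ on the gene's own strand.
Smpd2, chr10:41490341-41490590, minus strand: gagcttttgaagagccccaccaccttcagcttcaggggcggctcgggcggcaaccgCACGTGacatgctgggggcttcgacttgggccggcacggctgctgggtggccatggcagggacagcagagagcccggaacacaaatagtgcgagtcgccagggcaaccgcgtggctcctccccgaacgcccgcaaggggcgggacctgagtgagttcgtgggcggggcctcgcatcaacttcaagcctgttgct
Neu1, chr17:34931003-34931252, plus strand: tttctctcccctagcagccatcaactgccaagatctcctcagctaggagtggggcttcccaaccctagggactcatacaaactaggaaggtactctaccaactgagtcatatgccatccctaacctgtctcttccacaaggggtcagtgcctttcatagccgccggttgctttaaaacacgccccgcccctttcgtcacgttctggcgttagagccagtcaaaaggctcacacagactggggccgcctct
Glb1, chr9:114400828-114401077, plus strand: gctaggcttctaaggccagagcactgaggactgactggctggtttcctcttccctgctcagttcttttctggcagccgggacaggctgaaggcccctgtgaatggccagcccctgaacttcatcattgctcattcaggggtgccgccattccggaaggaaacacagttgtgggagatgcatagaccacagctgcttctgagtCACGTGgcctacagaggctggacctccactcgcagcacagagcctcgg
Hexa, chr9:59539290-59539539, plus strand: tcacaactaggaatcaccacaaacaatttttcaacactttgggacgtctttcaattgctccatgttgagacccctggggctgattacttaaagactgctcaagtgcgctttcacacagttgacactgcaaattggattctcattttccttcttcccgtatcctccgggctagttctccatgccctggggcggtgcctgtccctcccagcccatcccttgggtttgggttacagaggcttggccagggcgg
Gla, chrX:134601006-134601255, minus strand: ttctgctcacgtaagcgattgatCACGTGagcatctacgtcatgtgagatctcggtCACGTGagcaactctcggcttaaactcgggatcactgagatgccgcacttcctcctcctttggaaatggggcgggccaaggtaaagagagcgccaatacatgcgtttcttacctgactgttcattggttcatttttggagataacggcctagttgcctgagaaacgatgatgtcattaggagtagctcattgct
Arsa, chr15:89477425-89477674, minus strand: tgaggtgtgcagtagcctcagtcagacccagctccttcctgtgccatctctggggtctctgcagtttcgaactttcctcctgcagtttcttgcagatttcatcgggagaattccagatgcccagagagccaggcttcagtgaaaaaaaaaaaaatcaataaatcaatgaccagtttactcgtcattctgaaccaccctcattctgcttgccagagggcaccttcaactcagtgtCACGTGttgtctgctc

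CACGTG, which reads the same on both strands, was in the window of 9 of 37 members with a window (24.3%; Cers2, Cers6, Degs1, Sgms2, Smpd2, Sphk1, Glb1, Gla and Arsa), against 6.86% of 27025 genes and 6.02% of 32851 windows. The longer TCACGTG, searched on both strands and holding CACGTG within it, was in 7 of 37 (18.9%), against 3.58% of genes and 3.13% of windows. Of 32 lysosomal genes outside sphingolipid metabolism with a window, 10 held CACGTG (31.2%) and 9 held TCACGTG (28.1%), so the shares were not particular to the members. Genes with several starts have several windows and so more chances of a match. Among members with a window, 5 of 13 that rose in crowded rescue cells held CACGTG, and so did 4 of 19 other tested members, of which Cers6, Degs1 and Sgms2 fell there. In the lines above, its first letter lies 194 bases before the start in Smpd2, 48 in Glb1, 227 and 194 in Gla and 16 in Arsa, while Neu1 and Hexa have none in this window. A match describes the letters and is no measure of binding.

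Of 41 other sphingolipid genes, 27 were tested. In KO cells 8 were higher and 7 lower in dense cultures, and 6 were higher and 9 lower in sparse cultures. That is 55.6% called at each density, against 61.6% of all genes in dense and 48.9% in sparse cells. Smpdl3b, a sphingomyelinase-like phosphodiesterase, was higher by 5.57 in dense and 3.34 in sparse KO cells, and its relative Smpdl3a was at least 3.68-fold lower in dense KO cells, where it was not well above background (adjusted p = 7.77e-05). Elovl4, an elongase of very long chain fatty acids, was lower in KO cells (-2.72 in dense and -3.01 in sparse cells), as was Rtn4, an endoplasmic reticulum protein (-1.48 and -2.47). With crowding 2 were higher and none lower in KO cells (Hacd4, 1.24, and Nsmaf, 0.86), and 8 were higher and 4 lower in rescue cells. Of all genes, 5.45% were higher and 5.5% lower in KO cells, and 19.1% higher and 21% lower in rescue cells.

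Other lysosomal genes, outside sphingolipid metabolism, were counted in the same way. Of 40 tested of 41, 29 were lower and 5 higher in dense KO cells (median -1.24) and 18 lower and 9 higher in sparse KO cells (median -0.51). The shares were 85% called in dense and 67.5% in sparse cells, against 61.6% and 48.9% of all genes. In crowded KO cells 2 of 40 were higher and none lower (median 0.13), and in crowded rescue cells 24 were higher and none lower (median 1.00). The shares called were 5% in KO and 60% in rescue cells, against 11% and 40.1% of all genes. The interaction was negative for 13 and positive for none (median -0.82), 32.5% called against 20.8% of all genes. The TFEB family itself was split, as seen once Tfeb and Tfe3 were added after their values were known. Tfeb was higher in KO cells (1.78 in dense and 1.18 in sparse cells, the second being -0.42 with spike-in scaling). Mitf was lower (-3.82 in dense and -2.15 in sparse cells), and so was Tfe3 (-0.89 in dense cells, 0.01 with spike-in scaling, and -0.95 in sparse cells). In KO cells the Mitf signal was near background, with mean levels of -5.39 in dense and -4.76 in sparse cultures. Its probe was well above background on 2 of 3 KO sparse arrays. Tfeb, Tfe3 and Mitf were counted among the 40. The acid lipase gene Lipa was lower in dense KO cells (-3.08). Cln3, a lysosomal membrane protein gene, went the other way, 3.88 higher in dense and 4.39 higher in sparse KO cells. In crowded rescue cells the receptor gene Igf2r rose by 1.93, Naglu by 1.90 and Npc1 by 1.85, and Lipa had an interaction of -2.24 (adjusted p = 0.000944; 0.26 with spike-in scaling).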

How the data were processed

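RNA of 12 cultures was hybridised to one-colour arrays with 43379 spots, 1 array per culture. Spot intensity values were deposited by the authors as scanner output, made with Feature Extraction 10.5.1.1 per the file headers. The deposited processed signal was divided by the array's 75th percentile and put on the log2 scale; repeated spots were averaged after control and outlier spots were left out. The authors' deposited table of log2 values served as an alternative for days 1 and 2, a choice made after seeing the data.

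A probe was kept where each of the 3 arrays of some group measured it well above background (25877 probes), and the brightest stood for a gene. One limma 3.58.1 model (R 4.3.3) over the 4 groups gave all 5 comparisons. It was tested on simulated data. The members and gene lists were chosen with earlier results of these data known. Per-array values were given for the 5 members with the largest called rise and fall in each comparison and for the called interactions; of the other lists, the 3 largest called changes and the largest opposite one could be named, and Ptk2 and Ptk2b whatever their values. Some genes that this rule names are not reported here. P-values measure the spread between cultures of 1 clone or line. The replicate number is the experimental day per the labels, and same-day deviations correlated at -0.038 to 0.294. An exact permutation test of 3 against 3 cannot go below 0.1 and was not used.

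Alternatives were other scalings (array median, quantile, spike-in), normexp, other filters and probe rules, slide and day blocks and leaving out each array. The normexp correction took median spot signals. Array number limits the precision. Summed signals of other marker lists, relative to the 75th percentile, were as follows in KO dense, KO sparse, rescue dense and rescue sparse cultures. Mesothelial markers had 87.81 to 92.26, 79.31 to 85.05, 23.62 to 36.09 and 24.58 to 42.11. Epithelial markers had 101.1 to 109.5, 124.1 to 148.5, 1.487 to 1.825 and 4.9 to 6.917, with Cldn4 above background on no array. Endothelial markers had 0.09312 to 0.1221, 0.07319 to 0.1192, 0.2067 to 0.4704 and 0.07794 to 0.09694, with Pecam1 on none. Macrophage and leukocyte markers had 0.3645 to 0.4561, 0.5309 to 0.9348, 1.688 to 2.475 and 3.169 to 3.718, with Ptprc on none. Neural and glial markers had 12.33 to 15.3, 12.58 to 15.63, 1.663 to 2.33 and 1.221 to 1.806, with Snap25 on none. Of 5 tested epithelial markers, 3 were higher and 1 lower in dense KO cells, and 2 higher and none lower in sparse. That is 80% and 40% called, against 61.6% and 48.9% of all genes. The lower one was Cdh1 (-2.23), which like Epcam and Esrp1 was above background on no KO dense array. Krt18 was 9.73 and 8.53 higher in dense and sparse KO cells, and Krt8 was not called in sparse cells (-0.07).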

Additional observations from a re-analysis of the deposited data

Results flagged for a closer look

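For 10 members the density response differed between the lines by the interaction test (KO response minus rescue response, limma, log2). It was positive for Smpd3 (3.30), Sgpp1 (1.38) and Ormdl2 (0.99). It was negative for Cert1 (-1.96), Arsa (-1.81), Smpd2 (-1.78), Hexa (-1.64), Neu1 (-1.48), Gm2a (-1.33) and Gla (-1.14).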

How the results depend on the processing

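Of 70 called member results, 28 kept direction and call under all 24 alternatives, or for Smpd3, Cers4 and Galc under the 23 that tested them: 10 of 19 line differences in dense cells, 10 of 17 in sparse cells, 0 of 4 density differences in KO cells, 7 of 20 in rescue cells and 1 of 10 interactions. The cause of each change below was not tested. Spike-in scaling gave 7 higher and 7 lower members in dense KO cells, 2 and 28 in sparse KO cells, 34 and 0 in crowded KO cells, 1 lower in crowded rescue cells and 25 and 0 for the interaction. It turned the line difference in dense cells of Cers5 (0.09) and Ormdl3 (0.36), and in sparse cells of Cerk (-1.18), Cert1 (-1.34), Glb1 (-1.41), Gm2a (-0.63), Neu3 (-1.47), Ormdl1 (-1.15), Sgms1 (-1.42) and Sptlc1 (-1.47). It turned the KO density difference of Arsa (3.06), Cerk (3.17), Cers5 (3.06), Cers6 (1.41), Cert1 (1.34), Degs1 (2.90), Gm2a (3.06), Hexa (2.76), Neu1 (3.10), Ormdl3 (2.73), Psap (3.04), Sgms1 (2.81), Sgms2 (2.48), Sgpl1 (3.19), Smpd1 (3.01), Smpd4 (3.17), Sphk2 (2.69), Sptlc1 (2.90) and Sptlc2 (3.24). In rescue cells it turned Cers5 (0.09), Degs1 (0.18) and Sgpp1 (0.05). It turned the interaction of Arsa (0.68), Asah2 (2.19), Cerk (1.82), Cers6 (2.06), Cert1 (0.53), Gla (1.35), Glb1 (1.94), Gm2a (1.16), Hexa (0.85), Neu1 (1.01), Ormdl3 (1.99), Sgms1 (2.26), Smpd1 (1.87), Smpd2 (0.71), Sphk1 (2.27), Sphk2 (1.78) and Sptlc1 (2.44). In crowded KO cells, median scaling gave 8 higher and 1 lower members, quantile scaling 4 higher, no filter 1 lower, the mean of probes 5 higher, the slide as a fixed block 5 and as a random block 6 higher, and the authors' deposited values 4 higher and 1 lower. With normexp there were 0 and 0 in KO cells, 9 and 0 in rescue cells and 1 and 3 for the interaction. Probes above background on all arrays left 2 higher members in dense and 2 in sparse KO cells, and 4 in crowded KO cells. The mean of probes gave 11 negative interactions. The replicate block of days gave 5 higher members in crowded KO cells, ended no call and added 9. Leaving out 1 array gave 4 to 4 higher and 13 to 15 lower in dense KO cells, 4 to 4 and 12 to 15 in sparse KO cells, 1 to 5 and 1 to 3 in crowded KO cells, 9 to 14 and 3 to 6 in crowded rescue cells, and 2 to 3 and 6 to 10 for the interaction. Signals near background limit Smpd3 in dense rescue cells, Cers4 in rescue cells and Galc in sparse KO cells.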
